A study of Sus scrofa with 18 samples.

Results

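The p53 targets and growth arrest genes CDKN1A, MDM2, GADD45A, GADD45B, BAX, CCNG1 and BTG2 were followed in 9 pigs, in samples of the right ventricular free wall taken before and after ligation of coronary arteries. The members were all probe sets that the probe table assigns to exactly 1 of these 7 symbols. This gave 7 probe sets of 6 genes, out of 23935 tested probe sets and 6765 named genes. The table used here names no probe set for MDM2, which was not analysed here. CDKN1A (gene ID 100152215), GADD45A (733669), BAX (396633), CCNG1 (595110) and BTG2 (100048932) had 1 probe set each. GADD45B (100621090) had a brighter and a dimmer one.

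Each pig, a cross that the labels trace to Hampshire, Yorkshire and Swedish Landrace stock, gave a baseline and a failure sample, so that each animal was its own control (9 baseline and 9 failure arrays). For pigs 6, 8, 9, 11, 12 and 13 the failure sample is labelled with 120 min of ischemia, and these 6 animals are called label set 1. For pigs 5, 10 and 14 the labels give a weight of 30 to 40 kg and define failure as a right atrial pressure above 20 mmHg, with no time, and these 3 animals are called label set 2. No samples of unligated pigs at a matched time were analysed here, so time under surgery and ligation cannot be told apart.

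The tumour suppressor p53 is a transcription factor that accumulates when DNA is damaged or cells are stressed. Its targets stop the cell cycle (CDKN1A, GADD45A, BTG2), promote death through the mitochondrion (BAX) or feed back on p53 itself (MDM2, CCNG1). Several of them also respond to stress signals that do not pass through p53. In adult heart muscle most cardiomyocytes no longer divide, and these genes are studied there mainly as stress responders.

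Of the 7 probe sets, 0 passed an adjusted p of 0.05 between failure and baseline (limma with pig as a block), where 0.0668% of all tested probe sets did (0.0209% higher and 0.046% lower). At an unadjusted p under 0.05 there was 1 of 7, GADD45A, where 6.14% of all probe sets lay under it. Both groups overlapped for 7 of 7 probe sets, and 0% of all tested probe sets had groups without overlap. Levels are given as log2 intensities and changes as failure minus baseline within a pig on the log2 scale. In tissue samples fewer cells of a type and less RNA per cell cannot be told apart.

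**Figure D1:**
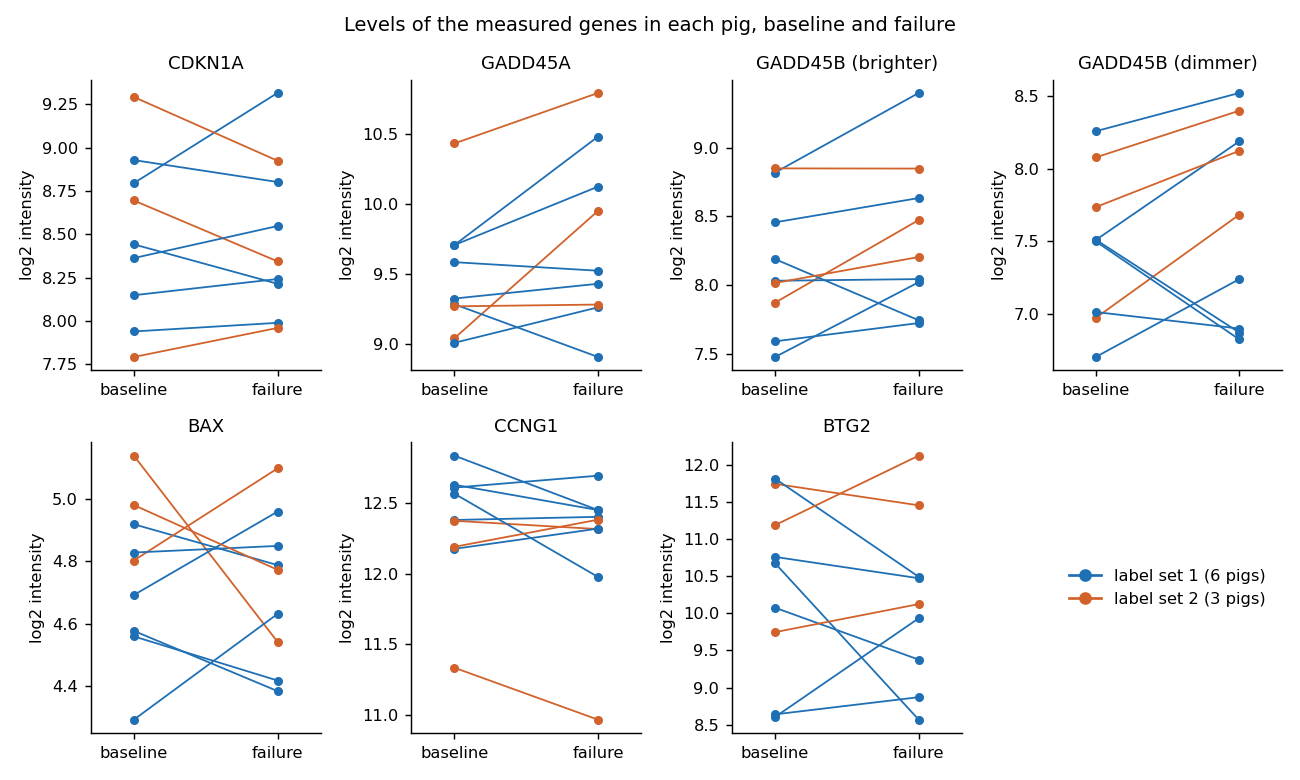
Log2 intensity (vertical axis of each panel, with its own range) of the 7 probe sets at baseline and in failure. Each line joins the samples of 1 pig, coloured by label set. Baseline and failure values overlap in each panel, CCNG1 is lowest in the same pig (pig 5) at both times, and BTG2 spans the widest range.

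CDKN1A encodes p21, the inhibitor of cyclin-dependent kinases through which p53 halts the cell cycle. Its level at baseline ran from 7.79 to 9.29 with a median of 8.44, and in failure from 7.96 to 9.32 with a median of 8.34. Pigs with a high baseline level also had a high failure level (Pearson r = 0.81 over 9 pigs, exact permutation p = 0.00793, adjusted 0.0335 over 8 relations of this kind). Spearman's rho was 0.87 (exact permutation p = 0.00451, adjusted 0.0361), r was 0.76 without pigs 10 and 14, and it was 0.84 within label set 1. The mean change was -0.01 (SE 0.09, 95% interval -0.19 to 0.18, adjusted p = 0.997). The change was above 0 in 5 pigs and below 0 in 4. The interval corresponds to a ratio of failure to baseline between 0.876 and 1.13. The extremes were pig 8 with 0.52 and pig 10 with -0.37. Over pigs the SD of the change was 0.29, against a median SD of 0.22 for all probe sets. Without repeat arrays, moves of single animals and measurement noise cannot be told apart.

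The GADD45 proteins are small stress sensors without enzyme activity that bind the kinase MAP3K4, the replication clamp PCNA and the mitotic kinase CDK1. GADD45A is the classical p53 target of the family. It ran from 9.01 to 10.43 at baseline (median 9.33) and from 8.91 to 10.80 in failure (median 9.52). Its change was 0.27 (SE 0.11, 95% interval 0.03 to 0.51, 1.20-fold), higher in 7 of 9 pigs, and it did not pass over all probe sets (adjusted p = 0.753). The exact sign-flip permutation test over the 9 pigs gave a two-sided p of 0.0977 (0.41 adjusted over the 7 probe sets). Pigs 5 (0.91) and 9 (0.78) had the highest changes and pig 13 (-0.38) the lowest. The mean stayed above 0 when any single pig was left out, from 0.19 to 0.35. Levels in failure followed those at baseline (r = 0.76, exact permutation p = 0.0126, adjusted 0.0335, rho = 0.75, exact permutation p = 0.0255, adjusted 0.0671). Without pigs 6 and 10 r was 0.46, so this rested on those animals, and within label set 1 it was 0.79.

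GADD45B, whose transcript is also induced by inflammatory and growth factor signals, was read by both its probe sets. The brighter one ran from 7.48 to 8.85 at baseline and from 7.72 to 9.40 in failure. Its change was 0.20 (SE 0.10, 95% interval -0.01 to 0.41, adjusted p = 0.824), higher in 7 of 9 pigs. The dimmer one had a mean change of 0.16 (SE 0.14, 95% interval -0.14 to 0.46, adjusted p = 0.916), higher in 6 of 9. For its levels at both times the brighter probe set had r = 0.79 over pigs (exact permutation p = 0.0105, adjusted 0.0335, rho = 0.72, exact permutation p = 0.0369, adjusted 0.0671), 0.48 without pigs 6 and 10 and 0.81 within label set 1. The mean of both probe sets had a mean change of 0.18 (SE 0.11, adjusted p = 0.886).

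The probe sets of GADD45B did not order the pigs in quite the same way, and the probe sets differ in brightness. Their changes had r = 0.74 over 9 pigs (exact permutation p = 0.0223, adjusted 0.0445) and rho = 0.70 (exact permutation p = 0.0433, adjusted 0.0671). Without pigs 5 and 8, the farthest from the median, r was 0.44 over a narrower range, and within label set 1 it was 0.76. In pig 8 both were lower (-0.45 and -0.68) and in pig 5 both were higher (0.60 and 0.71). In pig 13 the brighter probe set was nearly level (0.01) while the dimmer one was lower (-0.64).

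The third paralog, GADD45G, is not among the chosen targets but belongs to the same family. Its mean change was 0.33 (SE 0.13, 95% interval 0.05 to 0.62, adjusted p = 0.725). In 8 of 9 pigs it was higher in failure, where 4.19% of all tested probe sets had the same direction in at least 8. All 3 paralogs, each at its brightest probe set, were higher in 6 pigs and all 3 were lower in 1, pig 8. How often 3 other genes share a direction this way was not counted, and some of these signs rest on values near 0. Pig 14 had 0.01 for GADD45A and 0.02 for GADD45G, and pig 10 had -0.002 for GADD45B. In pig 8 the changes were -0.06 for GADD45A, -0.45 for GADD45B and -0.72 for GADD45G. None of the 3 passed, so the shared direction is a description of these animals.

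**Figure D2:**
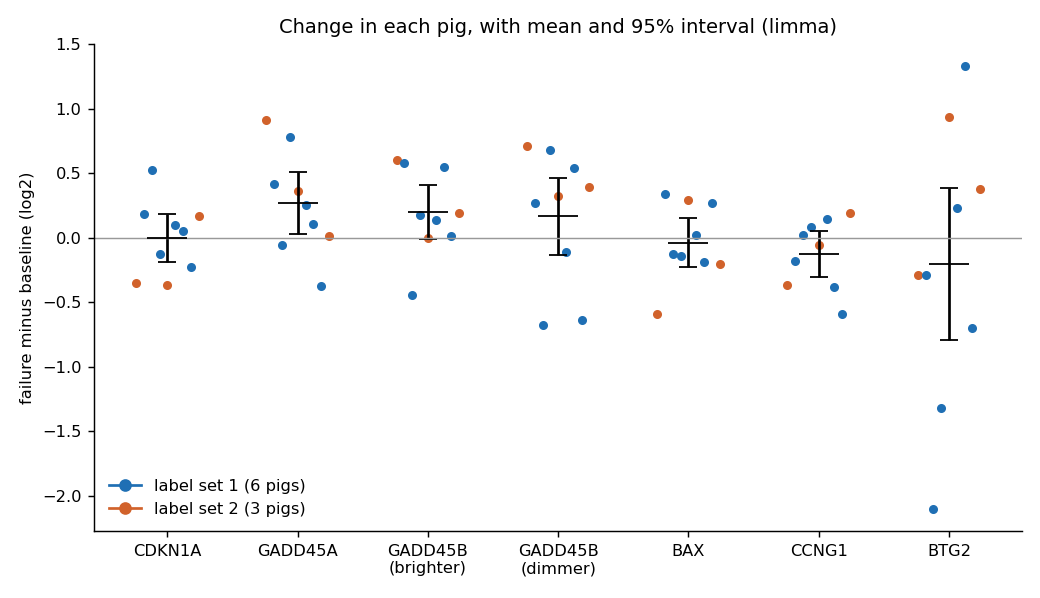
Failure minus baseline change (log2, vertical axis) of each probe set, with a point for each of 9 pigs coloured by label set, and the mean with its 95% interval from limma in black. The interval of GADD45A lies above 0 before adjustment (0.03 to 0.51), those of the other probe sets include 0, and the BTG2 points spread from -2.11 to 1.33.

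BTG2 is an antiproliferative protein that recruits the deadenylase complex to messenger RNAs, and its gene answers both p53 and growth factor signals within a short time. It varied most between animals. At baseline it ran from 8.60 to 11.81, a 9.24-fold range, and in failure from 8.57 to 12.12. The highest baseline levels were those of pig 9 (11.81) and pig 5 (11.74), and the lowest those of pig 12 (8.60) and pig 11 (8.64).

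The BTG2 change ran from -2.11 in pig 8 and -1.32 in pig 9 to 0.94 in pig 10 and 1.33 in pig 12. Its SD over pigs was 1.08, larger than that of 99.89% of tested probe sets, against a median SD of 0.22. The mean was -0.20 (SE 0.27, 95% interval -0.79 to 0.38, adjusted p = 0.95). The change was above 0 in 4 pigs and below 0 in 5. Without pig 8 it was 0.035, so the sign of the mean rested on that animal. Levels in failure and at baseline had r = 0.58 over pigs and rho = 0.68 (exact permutation p = 0.104 and 0.0503, adjusted 0.119 and 0.0671), so that the order of the animals was only partly kept. The interval of the change is wide and corresponds to a ratio of failure to baseline between 0.578 and 1.31, which includes no change.

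CCNG1 encodes cyclin G1, a p53 target that acts with a phosphatase on MDM2. Its levels were high on these arrays, from 11.33 to 12.84 at baseline (median 12.38) and from 10.97 to 12.69 in failure (median 12.38). Pig 5 was lowest at both times, whereas the other 8 pigs lay at 12.18 or above at baseline and at 11.98 or above in failure. The change was -0.13 (SE 0.08, 95% interval -0.30 to 0.05, adjusted p = 0.886). The change was above 0 in 4 pigs and below 0 in 5. Levels at both times had r = 0.84 and rho = 0.72 over pigs (exact permutation p = 0.0371 and 0.0369, adjusted 0.0594 and 0.0671). Here r was 0.13 without pigs 5 and 12, over a narrower range, and 0.21 within label set 1, which does not hold pig 5. The change was lowest in pigs 13 (-0.59), 12 (-0.39) and 5 (-0.37).

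CCNG1 moved with a sign of RNA quality. The arrays carry control probe sets for both ends of the GAPDH transcript, and the log2 level at the 3' end minus that at the 5' end is larger where RNA is more degraded. This difference was 0.237 ± 0.556 (SD, n = 9) higher in failure. It was above its baseline in 6 of 9 pigs, and a two-sided sign-flip test that enumerates all exact permutations gave p = 0.246. Across pigs its change and that of CCNG1 had r = -0.92 (exact permutation p = 0.000587, adjusted 0.0123 over 21 relations). Spearman's rho was -0.88 (exact permutation p = 0.00308, adjusted 0.0646). The relation was r = -0.81 without pigs 5 and 13 and r = -0.90 within label set 1. Without pig 13 alone r was -0.86 and no longer passed (exact permutation, adjusted p = 0.120).

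With the GAPDH difference as a covariate the CCNG1 change went from -0.13 to -0.02 (SE 0.06, adjusted p = 0.983). Over the 18 arrays the CCNG1 level had r = -0.91 with it, and -0.63 over the 16 arrays without pig 5. For the other members this r over arrays ran from -0.25 (dimmer GADD45B) to 0.27 (BTG2), and without pig 5 from -0.35 (dimmer GADD45B) to 0.31 (BAX), with -0.15 for BTG2. Their changes had r from -0.33 (CDKN1A) to 0.15 (GADD45B) with its change (exact permutation, adjusted p from 0.805 to 0.992). Within label set 1 alone GADD45A had r = -0.91 with it (6 pigs), against -0.25 over 9, and with the covariate its mean change was 0.31 (SE 0.12, adjusted p = 0.706).

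**Figure D3:**
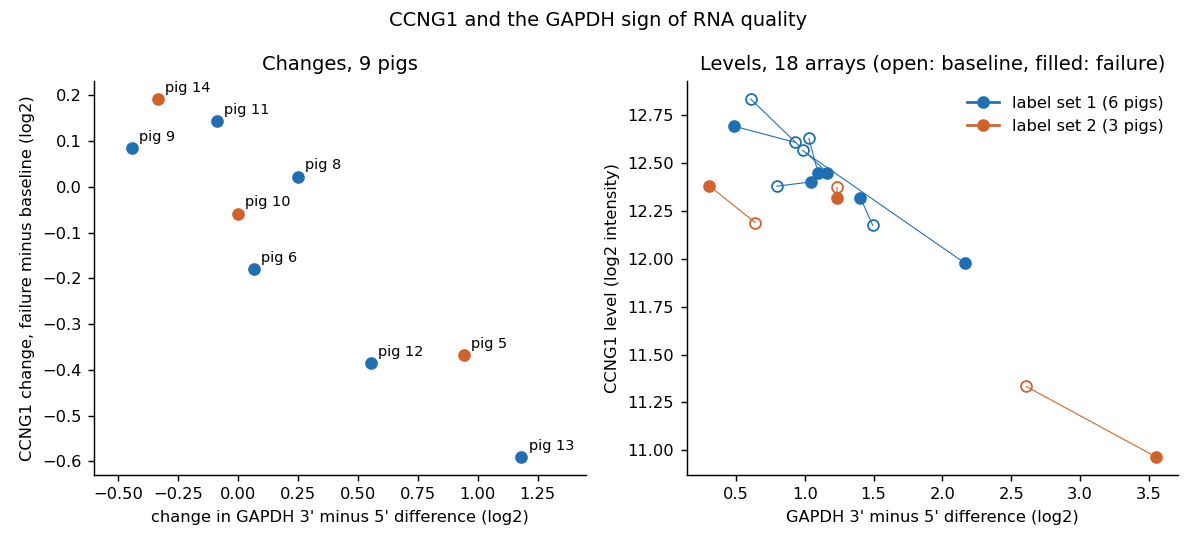
Left, the CCNG1 change against the change in the GAPDH 3' minus 5' difference (both log2) in 9 pigs (r = -0.92). Right, the same quantities as levels on 18 arrays, with lines joining a pig. Pigs 5, 12 and 13, with the largest increases in the difference, have the lowest CCNG1 changes, and the arrays of pig 5 lie apart at the lower right.

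BAX encodes the protein that opens the outer mitochondrial membrane in apoptosis. Its probe set was dim, with levels from 4.29 to 5.14 at baseline and from 4.38 to 5.10 in failure, below the median of all mean levels (5.63). The change was -0.04 (SE 0.09, 95% interval -0.23 to 0.15, adjusted p = 0.974). The change was above 0 in 4 pigs and below 0 in 5. The lowest was -0.60 in pig 5 and the highest 0.34 in pig 6. Levels in failure and at baseline had no correlation that passed (r = 0.26, exact permutation p = 0.506, rho = 0.23, exact permutation p = 0.552).

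Whether the members moved together was tested over pigs. Among 15 pairs of the 6 genes, 0 had changes whose correlation passed (exact permutation tests, adjusted over the 21 relations, with 0 pairs at an unadjusted p under 0.05 as well). The highest was between GADD45B and BTG2 (r = 0.53, rho = 0.27, exact permutation p = 0.145 and 0.49, adjusted 0.805 and 1). It was 0.22 without pigs 5 and 8, and 0.11 without pig 8 alone. GADD45A and GADD45B had r = 0.51 and rho = 0.58 (exact permutation p = 0.157 and 0.108), 0.31 without pigs 5 and 13, and 0.72 (exact permutation p = 0.0293, adjusted 0.308) with the mean of both GADD45B probe sets. CDKN1A had r of -0.40 with GADD45A and -0.35 with GADD45B (exact permutation, adjusted p = 0.805 for each).

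Genes with the most similar level over the 18 arrays differed from member to member. These r values describe 9 pigs at both times, so the arrays are not independent. The genes were picked for the highest r on these same arrays. High r values, of changes too, and matching extremes therefore follow in part from that choice. For BTG2 they were EGR1, an immediate early transcription factor (r = 0.91), and IER3, another immediate early gene (0.90). The changes of BTG2 and EGR1 had r = 0.86 over 9 pigs, and those of BTG2 and IER3 0.58. EGR1 was lowest in pig 8 (-1.52) and highest in pig 12 (1.37), the pigs where BTG2 was lowest and highest, and its mean change was -0.21 (SE 0.21, adjusted p = 0.940).

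For GADD45B they were MYC, a growth-promoting transcription factor (r = 0.93), and DUSP1, a phosphatase that switches off MAP kinases (0.93). DUSP1 also stood in the list of growth arrest genes. For GADD45A they were MEX3C, an RNA-binding ubiquitin ligase (0.90), and RGS2, a regulator of G protein signalling (0.87), although the other RGS2 probe sets reached only 0.32. For CCNG1 they were PTGR2, a prostaglandin reductase (0.99), and MPC1, a subunit of the mitochondrial pyruvate carrier (0.98), and without pig 5 these were 0.97 and 0.91. The PTGR2 change was lowest in pigs 5 (-0.70), 13 (-0.62) and 12 (-0.39), and that of MPC1 in pigs 13 (-0.415) and 12 (-0.285). Pigs 5, 12 and 13 had the largest rises in the GAPDH 3' minus 5' difference, whose part in this was not tested. CDKN1A was most like FHL1, a LIM protein of muscle (0.83), and PPP2R1B, a scaffold subunit of protein phosphatase 2A (0.83), whose other probe set reached 0.35. The changes of these pairs over 9 pigs had r of 0.86 for MYC, 0.71 for DUSP1, 0.46 for MEX3C, 0.48 for RGS2, 0.92 for PTGR2, 0.86 for MPC1, 0.52 for FHL1 and 0.72 for PPP2R1B. BAX was most like FASTK (0.82) and ZFAND2B (0.80), whose other probe set had -0.067.

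**Figure D4:**
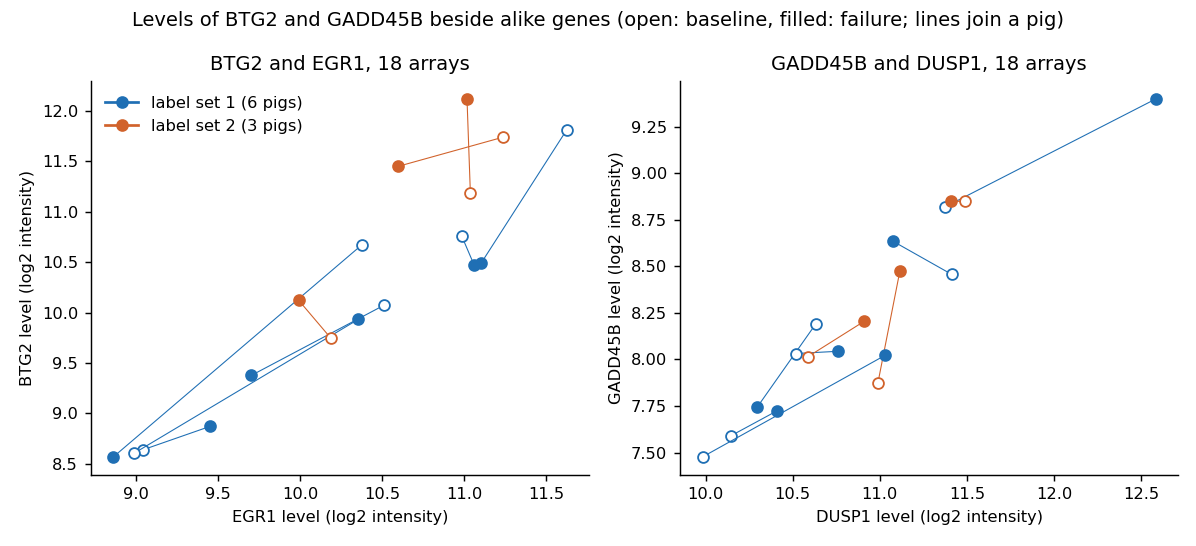
Log2 intensity of BTG2 against EGR1 (left) and of the brighter GADD45B probe set against DUSP1 (right) on 18 arrays, open for baseline and filled for failure, with lines joining a pig. Levels run along the diagonal in both panels (r = 0.91 and 0.93), with baseline and failure points mixed.

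The remaining p53 pathway was described from gene lists. Among p53 and its regulators 11 of 25 genes were named on the array. Of the 11, 0 passed (limma, 0 at an unadjusted p under 0.05), 8 had a higher and 3 a lower mean, and the median change was 0.03. Without pig 5 these were 6 and 5. The mean of this list was higher in 3 of 9 pigs, with changes from -0.06 to 0.12. The checkpoint kinase CHEK1 had a change of -0.14 (SE 0.09, adjusted p = 0.874), the nucleolar protein NPM1 of 0.08 (SE 0.05, adjusted p = 0.885) and PPM1D, a phosphatase that shuts p53 off, of 0.03 (SE 0.07). Over all 6765 genes the median was -0.01, and 46.4% had a higher mean, with 0.103% past the threshold.

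Of the other direct p53 targets 18 of 36 were named, with 0 past the threshold (0 at an unadjusted p under 0.05), 9 higher, 9 lower and a median of 0.004. The interval of SESN1, a sestrin that restrains growth signalling, was -0.10 to 0.13. ZMAT3, an RNA-binding protein, had a change of -0.16 (SE 0.08, lower in 7 of 9 pigs, adjusted p = 0.824), and of -0.083 without pig 9. THBS1, a matrix protein that blocks vessel growth, was read by 5 probe sets, with a change of 0.22 for the brightest (SE 0.11, adjusted p = 0.824) and from -0.07 to 0.16 for the other 4. The kinase gene PLK2 had a mean change of 0.20 (SE 0.12, adjusted p = 0.868) and the death receptor gene FAS of -0.06 (SE 0.07, at a dim level of 4.68). The repair gene DDB2 had a mean change of -0.07 (SE 0.09) at its brightest probe set, and of 0.12 and 0.01 at the others. PMAIP1, which encodes the death-promoting protein NOXA, lay between -0.94 and 1.06 in single pigs with a mean of -0.03, at a dim level of 4.72.

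Other growth arrest genes lay mostly on the higher side. Of 17 named among 24, 15 had a higher mean (3136 of all 6765 genes did) and 2 a lower one, with a median change of 0.04. In limma 0 were past the threshold and 1 lay at an unadjusted p under 0.05 (GADD45G), where 5.54% of all genes did. The mean of the list was higher in 6 of 9 pigs, with changes from -0.07 to 0.22. Some means were near 0, such as CCNG2 (0.01, higher in 3 of 9 pigs) and RBL2 (0.01, higher in 4 of 9). All means come from the same pigs, so they are not independent counts. With the GAPDH covariate 12 were higher and 5 lower. After GADD45G the next smallest p was that of CEBPD, a stress-induced transcription factor (0.19, SE 0.09, adjusted p = 0.825). DUSP1 had a mean change of 0.27 (SE 0.14, adjusted p = 0.848), and BTG1, a relative of BTG2, by 0.10 (SE 0.05, higher in 7 of 9 pigs, adjusted p = 0.853). The cell cycle inhibitor CDKN1B had an interval of -0.12 to 0.14 for the brightest of its probe sets, whereas a dimmer one gave -0.47 (SE 0.14, adjusted p = 0.528). TOB1, another BTG relative, had a mean change of -0.09 (SE 0.11) and the transcription factor KLF4 by 0.04 (SE 0.08).

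Cell cycle genes, whose activity p21 and its partners restrain, lay mostly on the lower side. Of 15 named among 26, 13 had a lower mean (3629 of all 6765 genes did), with a median of -0.08. The pigs differed in this. In pigs 5, 6, 10, 12 and 13, 10 to 13 of the 15 were lower, whereas in pigs 8, 11 and 14 it was 7 of 15 with medians above 0, and in pig 9 it was 8. None passed (limma, smallest adjusted p = 0.276), and 5 of 15 lay at an unadjusted p under 0.05, where 5.54% of all genes did. These genes are regulated together, so they are not independent counts. RRM2, a subunit of ribonucleotide reductase, had a mean change of -0.27 (SE 0.06, adjusted p = 0.276). Its probe set was dim (mean level 5.50), and 9 of 9 pigs were lower, as for 0.414% of all genes. TOP2A, the topoisomerase of dividing cells, had a mean change of -0.29 (SE 0.11, lower in 8 of 9, adjusted p = 0.681), or -0.18 without pig 10, and the clamp gene PCNA by -0.21 (SE 0.08, lower in 6 of 9, adjusted p = 0.724).

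With the GAPDH covariate 9 of the 15 cell cycle genes were lower and the median was -0.08. PCNA then had -0.11 and RRM2 kept -0.27. Without pig 5, 12 were lower. Red blood cell markers, measured for 5 of 8 genes, were lower in 5 of 5 (3 past the threshold) with a median of -0.83, and the mean of the list ran from 6.60 to 7.88 at baseline and from 5.64 to 6.91 in failure. Lymphocyte markers, measured for 9 of 12 genes and all dim, had 6 lower means and 0 past the threshold (limma, 3 at an unadjusted p under 0.05), with a list mean lower in 8 of 9 pigs, from 4.49 to 4.77 at baseline and from 4.39 to 4.64 in failure. Of these 3, named after their values were seen, CD8A, a coreceptor of cytotoxic T cells, had a mean change of -0.49 (lower in 8 of 9, adjusted p = 0.326), KLRK1 of -0.36 (adjusted p = 0.460) and CD3D of -0.21 (adjusted p = 0.753). The remaining lymphocyte markers had mean changes between -0.10 (CD3E) and 0.02 (CCR7), with 0.005 for CD8B (higher in 5 of 9). The part of either cell type in the levels of the cell cycle genes was not tested.

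**Figure D5:**
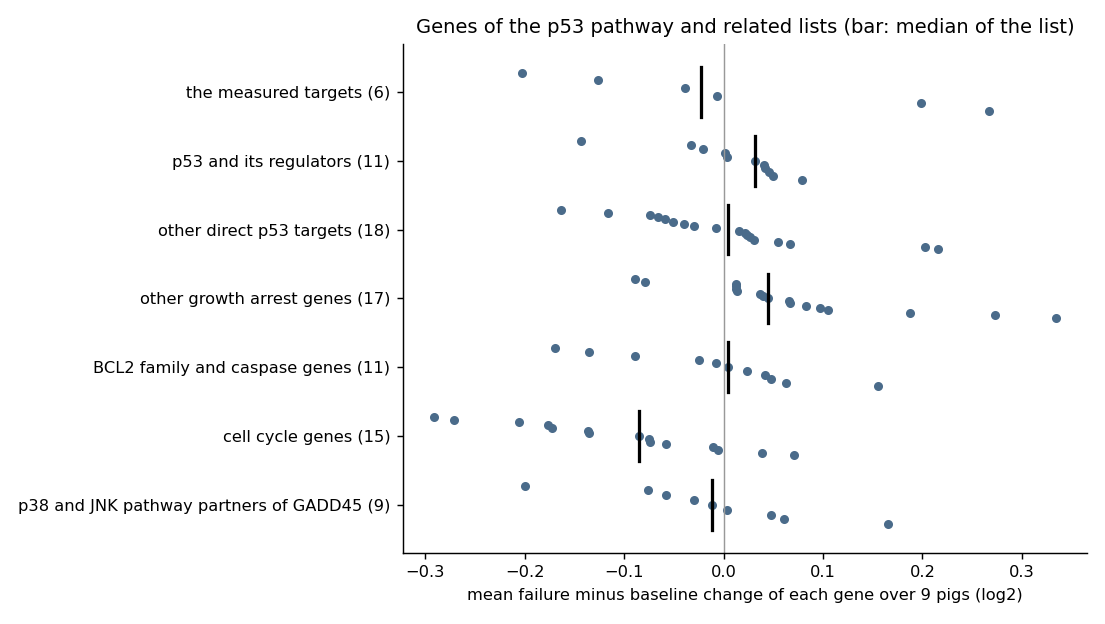
Mean failure minus baseline change over 9 pigs (log2, horizontal axis) of each named gene, by list, with the number of genes in brackets and a bar at the median. Growth arrest genes lie mostly to the right of 0 (15 of 17) and cell cycle genes mostly to the left (13 of 15), with 0 genes of these lists past the threshold.

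The changes of label set 1 were set against those of label set 2. In limma's interaction test 0 of 7 probe sets passed, with adjusted p from 0.911 to 0.990, and 0 of 7 lay at an unadjusted p under 0.05, where 0% and 5.67% of all probe sets did. In label set 1 the BTG2 change was -0.48 ± 1.20 (SD, n = 6), and in label set 2 it was 0.34 ± 0.61 (SD, n = 3), a difference of 0.82 with a 95% interval of -0.38 to 2.01. CDKN1A had a mean change of 0.08 ± 0.26 and -0.18 ± 0.30, a difference of -0.27 (-0.64 to 0.11). The dimmer GADD45B probe set had a mean change of 0.01 ± 0.58 and 0.47 ± 0.21, a difference of 0.47 (-0.13 to 1.07). For the brighter one these were 0.17 ± 0.38 and 0.26 ± 0.31, a difference of 0.10 (-0.36 to 0.55). With 3 animals in label set 2 the intervals are wide, and each of those given here includes 0.

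The labelled tissue was checked against marker genes. Cardiomyocyte markers, measured for 9 of 10 genes, had an array mean between 13.79 and 14.32, and 9 of 9 lay above the median level of all probe sets. Of the blood cell markers 0 of 4 for neutrophils, 0 of 9 for lymphocytes, 2 of 5 for monocytes and 4 of 5 for red blood cells lay above it, which does not compare amounts between genes. No gene of the lists for cardiomyocytes, fibroblasts, endothelium, smooth muscle, monocytes, neutrophils, lymphocytes or adipocytes passed between failure and baseline (limma, 5 of 50 markers at an unadjusted p under 0.05, 3 of them the lymphocyte genes named above, where 5.54% of all genes were). Array medians ran from 5.59 to 5.66. The GAPDH 3' minus 5' difference of pig 5 was 2.61 at baseline and 3.55 in failure, against 0.61 to 1.49 in the other baseline samples. Without pig 5 the mean changes were 0.037 for CDKN1A and 0.031 for BAX, both opposite in sign to the means over 9 pigs and neither past the threshold.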

How the data were processed

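The deposited table holds 1 log2 intensity for each probe set and array (18 Affymetrix arrays), made from 250 ng of total RNA each per the labels' protocols. The submitters' processing notes name Partek, with no version. How signals were normalized and summarized is not given in the sources used here, and a shift shared by most transcripts could be hidden by it. The number of arrays limits the precision.

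Control probe sets (188 of 24123) were left out. For each gene the brightest probe set by mean level was used, and symbols were checked against RefSeq (assembly Sscrofa11.1, 0 changed). Failure was compared with baseline with limma 3.58.1 in R 4.3.3 (moderated and two-sided, with a term for each pig as block). Unless a permutation test is named, adjusted p-values come from it (Benjamini-Hochberg over 23935 probe sets, threshold 0.05), and intervals are 95%. The label set comparison was an interaction term. The labels give each pig's number to both its samples; after removal of group means these correlated with r from 0.449 to 0.750, each baseline sample best with its own pig in 9 of 9. Correlations over pigs used exact permutation tests (21 relations of changes, and 8 of levels and probe sets added after the data were seen). Where r is given without a pair of pigs, these are the animals farthest from the median of the first quantity (the baseline level for levels). Leaving them out narrows the range and can lower r by itself. The fits were tested on simulated data.

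The members and lists were chosen with earlier results of these data known. Named genes are all members, up to 2 genes with the smallest p of each list, those past the threshold and 30 chosen by name (16 named on the array), and for each member the 2 genes most like it. Alternatives were other pairings, scalings, filters, variance models, the GAPDH covariate, rounding, single pigs left out and each label set alone. The r without pig 5, the list counts under alternatives, and single named genes without 1 pig or with the covariate were added after the data were seen.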

Additional observations from a re-analysis of the deposited data

Results flagged for a closer look

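Of 48 sets of 9 values (levels at a time, or changes), 6 held an animal well outside the range of the rest. About 1 in 20 sets, or 2.4 here, would do so by chance. Among the members, the GADD45A level at baseline was 10.435 in pig 10, against 9.01 to 9.71 in the others. CCNG1 was lowest in pig 5 both at baseline (11.334, against 12.18 to 12.84) and in failure (10.965, against 11.98 to 12.69), and that pig also had the largest GAPDH 3' minus 5' differences (2.61 and 3.55), whose part in this was not tested. Among the other named genes, the ZMAT3 change was -0.811 in pig 9 against -0.21 to 0.07. The RRM2 change was -0.65 in pig 6 against -0.34 to -0.04, and the TOP2A change was -1.1708 in pig 10 against -0.47 to 0.12.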

How the results depend on the processing

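None of the 7 member probe sets passed in any of 154 alternative fits (smallest adjusted p = 0.556), including those without the replicate block, so the pairing changed no call for them. GADD45A, both GADD45B probe sets and CCNG1 kept their direction in each of them. The sign of CDKN1A turned with the GAPDH covariate (0.0345) and in label set 1 alone (0.0825), and leaving out 1 pig gave -0.0721 to 0.0389. The sign of BAX turned in label set 1 alone (0.027), with -0.0856 to 0.0312 when 1 pig was left out, and BAX lies below the filter at the median. BTG2 turned in label set 2 alone (0.34) and lay between -0.39 and 0.0346 without 1 pig. Over all probe sets, 16 passed. The count was 0 with no replicate block (440 at an unadjusted p under 0.05), 0 in an unmoderated paired test (1431), 9 above the median level, 9 with the GAPDH covariate, 3 in label set 1 alone, 0 in label set 2 alone (1211), and 2 to 26 without 1 pig. The cause was not tested. The interaction gave 0 as reported (1356 unadjusted), with quantile normalization, with the covariate and without any 1 pig, the alternatives run for it. The number of correlations of changes past the threshold was 1 as reported and 0 to 1 without 1 pig. That of CCNG1 with the GAPDH difference lay between -0.94 and -0.86. The number of pigs limits the width of each interval.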

Other observations

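Genes of the BCL2 family and caspases, the partners of BAX in cell death, showed no common direction. Of 11 named among 21, 6 had a higher and 5 a lower mean (median 0.004), with 0 past the threshold in limma and 1 at an unadjusted p under 0.05, DIABLO. DIABLO, which is released from mitochondria and relieves the inhibition of caspases, had a mean change of -0.17 (SE 0.07, higher in 2 pigs and lower in 6, adjusted p = 0.753) at its brighter probe set and of -0.09 at the other. Its lowest changes were those of pigs 5 (-0.59), 13 (-0.37) and 12 (-0.34), the animals with the largest rises in the GAPDH 3' minus 5' difference (0.94, 1.18 and 0.55), and with that difference as a covariate the change was -0.089 (SE 0.06, adjusted p = 0.869). The 95% interval of the survival gene MCL1 was -0.12 to 0.11. That of its relative BCL2L1 was -0.09 to 0.17 at its brighter probe set, and the other had a mean change of -0.05. BAK1, the other pore-forming protein, had a mean change of 0.06 (SE 0.08, adjusted p = 0.947) at a dim level of 4.41. BCL2L11, which encodes the death-promoting BIM, had a mean change of 0.16 (SE 0.10, adjusted p = 0.884) at its brighter probe set. That probe set was higher in 4 pigs and lower in 5, and the other, of similar level (5.21 against 5.45), had a mean change of 0.02.

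Partners of the GADD45 proteins in p38 and JNK signalling were also mixed. Of 9 named among 13, 4 were higher and 5 lower (median -0.01), with 0 past the threshold and 1 at an unadjusted p under 0.05. That was the JNK gene MAPK9 (-0.20, SE 0.08, lower in 6 of 9 pigs, adjusted p = 0.695), at a dim level of 3.91. NFKB1 had a mean change of 0.17 (SE 0.10, adjusted p = 0.865), also at a dim level (3.75).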
